A study of Homo sapiens with 18 samples.

Results

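GAS5 and 9 other noncoding genes that carry small nucleolar RNAs (snoRNAs) in their introns were followed through 6 groups of lymphoma cell libraries. The genes were taken by name: GAS5, SNHG1, SNHG5, SNHG6, SNHG7, SNHG8, SNHG12, SNHG15, ZFAS1 and EPB41L4A-AS1. All 10 had a row in both deposited tables and a mean of at least 10 normalized counts in each, among 25369 genes listed per table and 10632 that passed the same minimum in both. RNA was sequenced from JEKO1 and MAVER, human cell lines of mantle cell lymphoma, a B cell cancer driven in most cases by cyclin D1. Cells were exposed for 6 h to IB in JEKO1, to IB, KPT or PU in MAVER, or to the solvent DMSO in both lines, with n = 3 libraries in each group. IB was read as ibrutinib at 0.4 µM, which blocks the B cell receptor kinase BTK, and KPT as selinexor at 1.5 µM, which blocks the nuclear exporter XPO1, because these are the inhibitors the series design names. PU, its target and its dose are not defined in the sources used here. Each line is a single established tumour line, and the replicates are called biological with no word on how cultures were separated. The p-values therefore cover only the spread seen among libraries, which may be technical in part.

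Recovered depth was 5374226 to 17040599 reads per library, and the 10 host genes drew between 19 and 3286 reads in a MAVER library and between 46 and 2103 in a JEKO1 library. CCND1 and SOX11, markers of mantle cell lymphoma, and the B cell gene CD79A were high in every library, while CD2, a T cell marker, was listed at 0 throughout. Other markers were less clear in JEKO1. CD5, also a mantle cell lymphoma marker, reached at most 82.6 normalized counts there, and the B cell gene CD22 at most 160.1. The T cell genes CD3E and CD3D had no read in MAVER. In JEKO1 CD3E stood at 2.29 to 5.23, and CD3D reached at most 4.19. RNA45S5, the ribosomal RNA precursor, was high in 3 libraries, with 53819 and 66933 normalized counts in replicates A and C of KPT and 65331 in replicate C of JEKO1 DMSO, against 7919 to 32274 in the others. The hosts' values and the list counts without these 3 libraries are given beside those with them; without them the KPT group is the single replicate B, assumed to vary like the other groups. Named genes outside the 10 hosts were fitted with all libraries. XPO1, the target of selinexor, was 1.10 ± 0.04 higher on the log2 scale with KPT than with DMSO in MAVER (SE; limma adjusted p = 8.17e-24).

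snoRNAs are short RNAs that guide chemical modification of ribosomal and spliceosomal RNA, the box C/D class directing methylation of ribose and the box H/ACA class directing conversion of uridine to pseudouridine. In vertebrates most are cut from introns, and a host gene must be transcribed and spliced to make them. The spliced exons of GAS5 and several relatives hold no long reading frame, are bound by ribosomes and are degraded by nonsense-mediated decay, so their level depends on transcription, on translation and on decay. Several of these genes start with a run of pyrimidines, the 5′ terminal oligopyrimidine (5′TOP) feature shared with ribosomal protein messages. GAS5 takes its name from growth arrest-specific transcript 5, and its RNA builds up in cells that stop growing.

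The first bases are shown because several of these genes carry that start. For GAS5, the most common 5′ end of its GENCODE v29 transcripts (6 of 29) is used. The 30 bases from it, at chr1:173867960-173867989 (GRCh38, minus strand), open with a run of 6 pyrimidines, in capitals here.
GAS5: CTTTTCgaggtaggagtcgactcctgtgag
For ZFAS1, SNHG5, SNHG7, SNHG8, SNHG12, SNHG1 and EPB41L4A-AS1, windows of 60 bases around the RefSeq start (GRCh38.p14; 40 bases before it and 20 from it) were searched on the sense strand. Capitals mark TATAA found 40 to 20 bases before the start, and the pyrimidine run around any C that is followed by at least 4 bases each C or T and that lies within 5 bases of the start. The windows are chr20:49278602-49278661 (plus strand) for ZFAS1, chr6:85678714-85678773 (minus) for SNHG5, chr9:136728165-136728224 (minus) for SNHG7, chr4:118278722-118278781 (plus) for SNHG8 and chr1:28581854-28581913 (minus) for SNHG12. Those of SNHG1 and EPB41L4A-AS1 are chr11:62855866-62855925 (minus) and chr5:112160486-112160545 (plus). The starts used for ZFAS1 and SNHG12 lie inside the RefSeq genes, whose 5′ ends are at chr20:49278178 and chr1:28582983. SNHG6 and SNHG15 are not shown here.
ZFAS1: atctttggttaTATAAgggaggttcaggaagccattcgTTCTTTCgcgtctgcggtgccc
SNHG5: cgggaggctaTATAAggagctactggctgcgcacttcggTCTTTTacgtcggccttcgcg
SNHG7: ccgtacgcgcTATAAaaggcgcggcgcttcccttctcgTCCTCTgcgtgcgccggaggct
SNHG8: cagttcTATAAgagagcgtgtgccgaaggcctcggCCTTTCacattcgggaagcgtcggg
SNHG12: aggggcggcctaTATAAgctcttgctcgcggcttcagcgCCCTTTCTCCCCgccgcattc
SNHG1: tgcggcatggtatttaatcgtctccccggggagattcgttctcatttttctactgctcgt
EPB41L4A-AS1: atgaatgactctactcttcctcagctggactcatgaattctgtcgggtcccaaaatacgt

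Of the 8 host promoters in the RefSeq table, 5 held the pyrimidine run (62.5%), against 21.1% of 35116 promoters in that table and 72.5% of 80 ribosomal protein promoters. The same 5 held TATAA (62.5%), against 3.91% of all promoters and 10% of ribosomal protein promoters. The windows of SNHG1 and EPB41L4A-AS1 held neither string, nor did the window at the RefSeq start of GAS5, which lies upstream of the 5′ end shown. A short pyrimidine run does cross the SNHG1 start. It was not counted, since no C in it is followed by 4 bases each C or T. These searches were chosen after the sequences were seen, and a match is a description of letters only.

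In MAVER, most of the host transcripts stood higher with each drug than with DMSO, and with PU the differences were up to 1.70-fold. With IB 6 of 10 rose and 0 fell, against 10.1% of 11099 tested genes called higher and 9.65% called lower (limma on log2(normalized count + 1), Benjamini-Hochberg adjusted p under 0.05). With KPT 5 rose and 1 fell, against 27.3% of all genes called higher and 28.5% called lower. With PU 6 rose and 1 fell, against 27.6% called higher and 27.5% called lower. The 3 drug groups share the same DMSO libraries. In JEKO1, 0 of 10 rose and 5 fell in the libraries labelled IB, against 21.9% of 11609 genes called higher and 20.2% called lower.

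**Figure D1:**
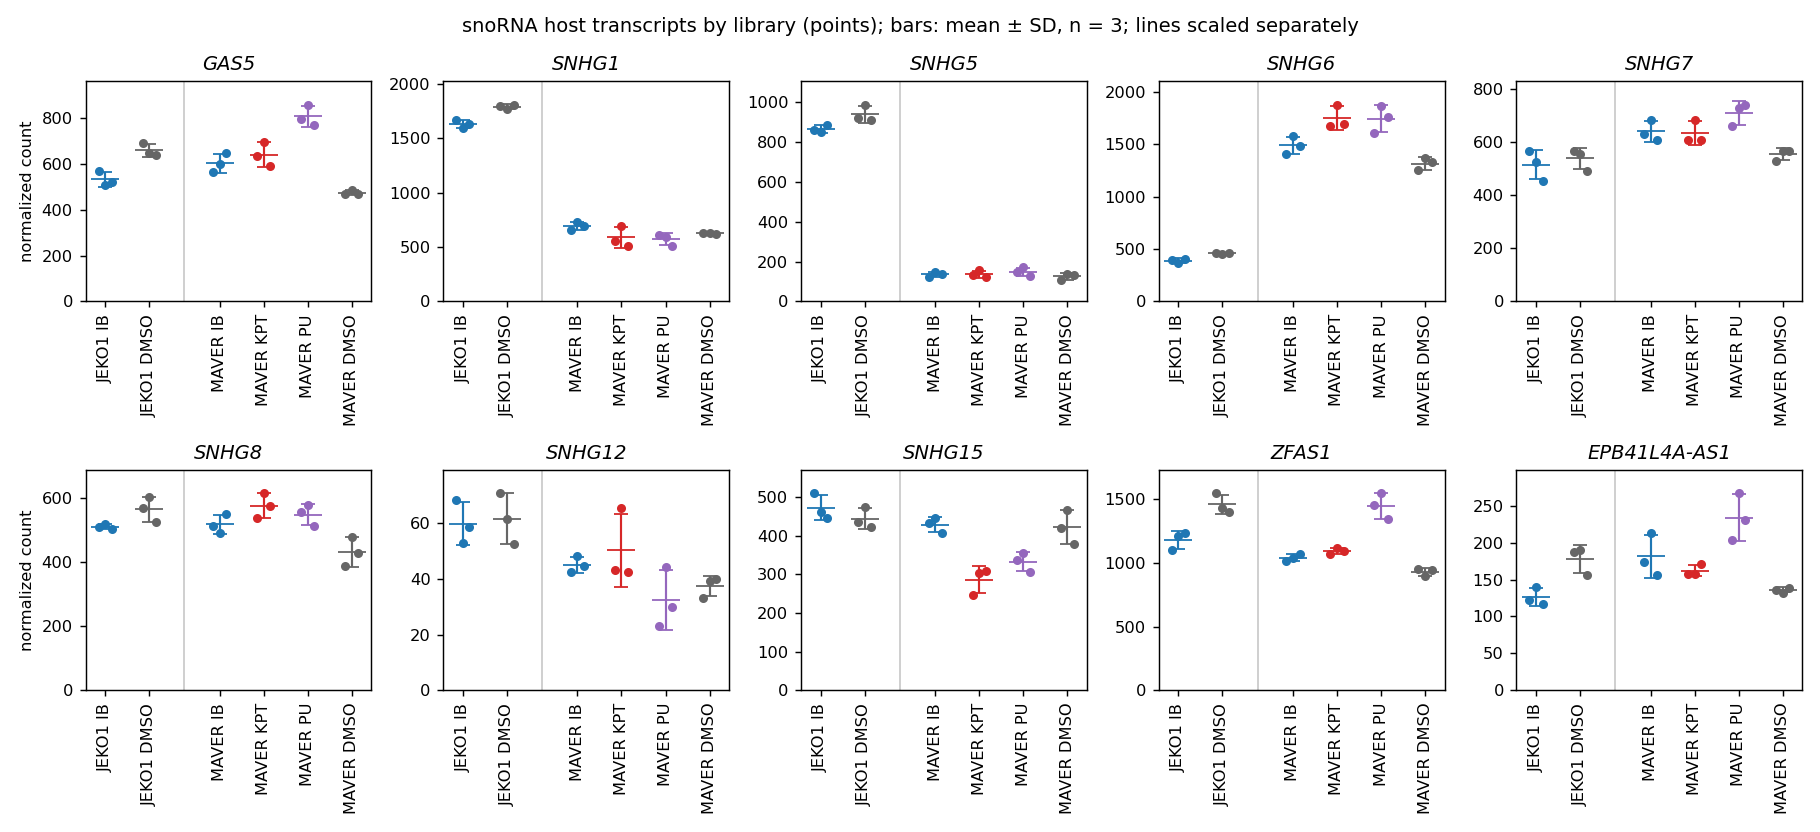
Normalized count (vertical axis, from 0) of each host gene in every library (points), with the mean and SD of 3 libraries, by cell line and treatment; the lines were scaled apart and their levels are not comparable. GAS5, ZFAS1 and EPB41L4A-AS1 are highest with PU among the MAVER groups and lower in JEKO1 libraries labelled IB than in those labelled DMSO, while SNHG15 is lowest with KPT.

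GAS5, the host of 10 box C/D snoRNAs, was higher with all 3 drugs in MAVER. It stood at 794, 857 and 767 normalized counts with PU, at 633, 696 and 589 with KPT and at 563.5, 598 and 647 with IB, against 466, 485 and 469 with DMSO. No drug library overlapped the DMSO libraries. The log2 fold change over DMSO was 0.77 ± 0.07 with PU, 0.43 ± 0.07 with KPT and 0.35 ± 0.07 with IB (SE; limma adjusted p = 6.96e-13, 6.7e-07 and 0.000107). Each of these calls was kept in every alternative fit that was run. In JEKO1, GAS5 stood at 568, 508 and 519 in libraries labelled IB, against 692, 645 and 637 in those labelled DMSO, a log2 fold change of -0.31 ± 0.07 (SE; adjusted p = 0.000743). The JEKO1 groups did not overlap either. In RNA from whole cultures, a change in every cell and a change in the share of cells that express the gene cannot be told apart.

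ZFAS1, which lies head to head with ZNFX1 and hosts the SNORD12 family, gave the same order of group means in MAVER. Its level was 1457, 1548 and 1345 normalized counts with PU, 1069, 1115 and 1098 with KPT and 1015, 1040.3 and 1075 with IB, against 952, 896 and 949 with DMSO. All drug libraries lay above all DMSO libraries, and the PU libraries lay above all others. The KPT and IB libraries overlapped, and the log2 difference between them was not called (0.07 ± 0.05, SE; limma adjusted p = 0.284). The rise was 0.63 ± 0.05 with PU, 0.23 ± 0.05 with KPT and 0.16 ± 0.05 with IB (log2 fold change ± SE; limma adjusted p = 2.78e-13, 0.00033 and 0.0256). The IB call did not hold without DMSO replicate B (0.13, adjusted p = 0.12), IB replicate B (0.16, adjusted p = 0.059) or IB replicate C (0.14, adjusted p = 0.092). In JEKO1, ZFAS1 stood at 1105, 1212 and 1234 in libraries labelled IB, against 1548, 1435 and 1405 in those labelled DMSO, with no overlap (-0.31 ± 0.06; adjusted p = 0.00015). ZNFX1 itself, a helicase-related gene, fell in MAVER by 0.61 ± 0.06 with KPT and by 0.32 ± 0.06 with PU on the log2 scale (SE; adjusted p = 4.13e-11 and 3.06e-05).

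EPB41L4A-AS1, which hosts the H/ACA snoRNA SNORA13, had the fewest reads of the responsive genes, 88 to 471 per library in MAVER. With PU it stood at 203, 267 and 231 normalized counts, with KPT at 158, 158 and 171 and with IB at 174, 213 and 156, against 136, 132 and 139 with DMSO. Every drug library exceeded every DMSO library. The log2 fold change was 0.77 ± 0.11 with PU and 0.40 ± 0.11 with IB (SE; limma adjusted p = 2.42e-07 and 0.00824), and 0.25 ± 0.11 with KPT, which did not pass the threshold (adjusted p = 0.0557, 95% interval 0.02 to 0.48). Without IB replicate B the IB value was 0.28 and was not called (adjusted p = 0.13). With KPT replicate B as the only KPT library the value was 0.22 (adjusted p = 0.285). The KPT value of 0.25 was called without IB replicate B (adjusted p = 0.047) or IB replicate C (adjusted p = 0.046), which enter through the shared estimate of spread. In JEKO1 this gene had the largest change of the 10, at 122, 139.9 and 117 in libraries labelled IB, against 187, 190.0 and 156 in those labelled DMSO (-0.48 ± 0.12; adjusted p = 0.00217). The highest library labelled IB lay below the lowest labelled DMSO.

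SNHG6, host of the box C/D snoRNA SNORD87, rose by nearly equal amounts with KPT and PU. Levels were 1607, 1862 and 1754 normalized counts with PU, 1677, 1877 and 1696 with KPT and 1410.2, 1577 and 1482 with IB, against 1249.9, 1368 and 1327 with DMSO. The drug libraries lay above the DMSO libraries in all 3 cases. Log2 fold changes were 0.40 ± 0.05 with PU, 0.41 ± 0.05 with KPT and 0.18 ± 0.05 with IB (SE; limma adjusted p = 4.71e-08, 3.36e-08 and 0.0155). The IB call did not hold without DMSO replicate A (0.14, adjusted p = 0.12) or IB replicate B (0.14, adjusted p = 0.13). In JEKO1 it stood at 391, 362 and 408 in libraries labelled IB, against 462, 456 and 461 in those labelled DMSO, which did not overlap (-0.25 ± 0.07; adjusted p = 0.00767).

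SNHG7 and SNHG8, hosts of H/ACA snoRNAs, rose with each drug in MAVER and were not called in JEKO1. SNHG7 stood at 660.4, 730.4 and 743 normalized counts with PU, 609.7, 687 and 611 with KPT and 631, 685 and 609.6 with IB, against 531, 569.6 and 567 with DMSO. Its log2 fold change was 0.35 ± 0.07 with PU, 0.19 ± 0.07 with KPT and 0.21 ± 0.07 with IB (SE; limma adjusted p = 1.39e-05, 0.0118 and 0.0196). No drug library fell into the DMSO range. The IB call failed without DMSO replicate A (0.17, adjusted p = 0.11) or IB replicate B (0.16, adjusted p = 0.15), and the KPT call without DMSO replicate A (0.16, adjusted p = 0.069) or KPT replicate B (0.14, adjusted p = 0.11). With KPT replicate B alone the value was 0.31 ± 0.09 (adjusted p = 0.0059).

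For SNHG8, the host of SNORA24, the levels were 556, 577 and 512 with PU, 538, 615 and 576 with KPT and 513, 493 and 551 with IB, against 388, 479 and 429.9 with DMSO. Again the drug and DMSO libraries did not overlap. Log2 fold changes were 0.35 ± 0.07, 0.42 ± 0.07 and 0.27 ± 0.07 with PU, KPT and IB (SE; limma adjusted p = 0.000113, 6.86e-06 and 0.00667), and the IB call failed without DMSO replicate A (0.19, adjusted p = 0.1). In JEKO1 libraries labelled IB, SNHG8 stood at 509.8, 519 and 505, against 569, 602 and 525 in those labelled DMSO (-0.14 ± 0.07; adjusted p = 0.0954). Without DMSO replicate C, 1 of the libraries rich in RNA45S5, that difference was -0.19 and was called (adjusted p = 0.026). SNHG7 overlapped between the JEKO1 groups (-0.07 ± 0.08, adjusted p = 0.535, 95% interval -0.23 to 0.10).

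SNHG15, the host of SNORA9 and known in human cells as a rapidly turned over RNA, was the host that fell in MAVER. It stood at 337, 355 and 306 normalized counts with PU, 247, 303 and 309 with KPT and 433, 445 and 407 with IB, against 421, 467 and 379 with DMSO. The PU and KPT libraries lay below the DMSO libraries, and the IB libraries lay within the DMSO range. It fell by 0.56 ± 0.09 with KPT and by 0.34 ± 0.09 with PU on the log2 scale (SE; limma adjusted p = 5.83e-07 and 0.000878). With IB the difference was 0.02 ± 0.09 (adjusted p = 0.896, 95% interval -0.15 to 0.20). In JEKO1 the libraries labelled IB, at 509.8, 462 and 447, overlapped those labelled DMSO, at 436, 474 and 422 (0.09 ± 0.07; adjusted p = 0.346).

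SNHG1, host of 8 box C/D snoRNAs, was called against DMSO in JEKO1 and in no MAVER drug group. In JEKO1 it stood at 1670.0, 1599.6 and 1628 normalized counts in libraries labelled IB, against 1794, 1769 and 1809.8 in those labelled DMSO. The groups did not overlap, but the size was small (-0.13 ± 0.05; limma adjusted p = 0.0216), and the call did not hold without DMSO replicate A (-0.13, adjusted p = 0.065) or IB replicate B (-0.12, adjusted p = 0.089). In MAVER, SNHG1 was 615, 593 and 510.1 with PU, 558, 698 and 515 with KPT and 653, 732 and 696 with IB, against 632, 626 and 622 with DMSO. KPT replicate B was high and replicates A and C, the RNA45S5-rich libraries, were low. The log2 differences from DMSO were -0.13 ± 0.08, -0.10 ± 0.08 and 0.14 ± 0.08 with PU, KPT and IB (adjusted p = 0.145, 0.29 and 0.208). Without KPT replicate B the KPT difference was -0.23 and was called (adjusted p = 0.011), and without replicates A and C it was 0.16 (adjusted p = 0.179).

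Neither SNHG5, whose gene was first described at a translocation breakpoint in a B cell lymphoma, nor SNHG12, which hosts SNORA44 and SNORD99 among others, was called against DMSO. SNHG5 stood at 128 to 171 normalized counts with PU, 121 to 156 with KPT and 121 to 146 with IB, against 108 to 139 with DMSO. Its 95% intervals were -0.03 to 0.49, -0.16 to 0.36 and -0.16 to 0.36 on the log2 scale, and without PU replicate C the PU difference was 0.33 and was called (adjusted p = 0.046). In JEKO1, SNHG5 was 851 to 887 in libraries labelled IB, against 909 to 988 in those labelled DMSO (-0.12 ± 0.05; adjusted p = 0.0988).

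SNHG12 had the fewest reads of the 10 hosts, 19 to 78 reads per MAVER library. It stood at 23.1, 44.2 and 29.8 normalized counts with PU, 43, 65.3 and 42.4 with KPT and 42.4, 48 and 44.6 with IB, against 33.2, 39.1 and 39.9 with DMSO. Its log2 differences of -0.25, 0.39 and 0.27 with PU, KPT and IB each had an SE of 0.22. Without the RNA45S5-rich replicates the remaining KPT library gave 0.79 ± 0.29 (adjusted p = 0.0277), with that lone library assumed to vary like the other groups. In JEKO1 the 95% interval was -0.39 to 0.32.

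Over all 10 hosts the median log2 fold change was 0.35 with PU, 0.24 with KPT and 0.19 with IB in MAVER and -0.14 with IB in JEKO1, while the medians of all tested genes lay between -0.0062 and 0.0069. Libraries did not overlap with DMSO for 8 of 10 hosts with each MAVER drug, against 61.2% of all genes with PU, 60.4% with KPT and 33.8% with IB. In JEKO1 this held for 7 of 10, against 50.2% of all genes. Without the libraries rich in RNA45S5, 6 hosts rose and 1 fell with KPT, against 20.3% of all genes called higher and 23.5% called lower, a count that rests on KPT replicate B alone. The KPT log2 fold change was then 0.56 for GAS5, 0.26 for ZFAS1, 0.51 for SNHG6, 0.51 for SNHG8, 0.30 for SNHG5 and -0.47 for SNHG15, and of these only SNHG5 was not called (adjusted p = 0.162). In JEKO1 libraries labelled IB, 0 hosts rose and 6 fell without DMSO replicate C, against 20.6% and 19% of all genes. The JEKO1 log2 fold change was then -0.33 for GAS5, -0.33 for ZFAS1, -0.58 for EPB41L4A-AS1, -0.25 for SNHG6 and -0.13 for SNHG1, all still called, and -0.14 for SNHG5 and -0.13 for SNHG7, not called (adjusted p = 0.0616 and 0.226). The part of RNA45S5 content in these differences was otherwise not tested.

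**Figure D2:**
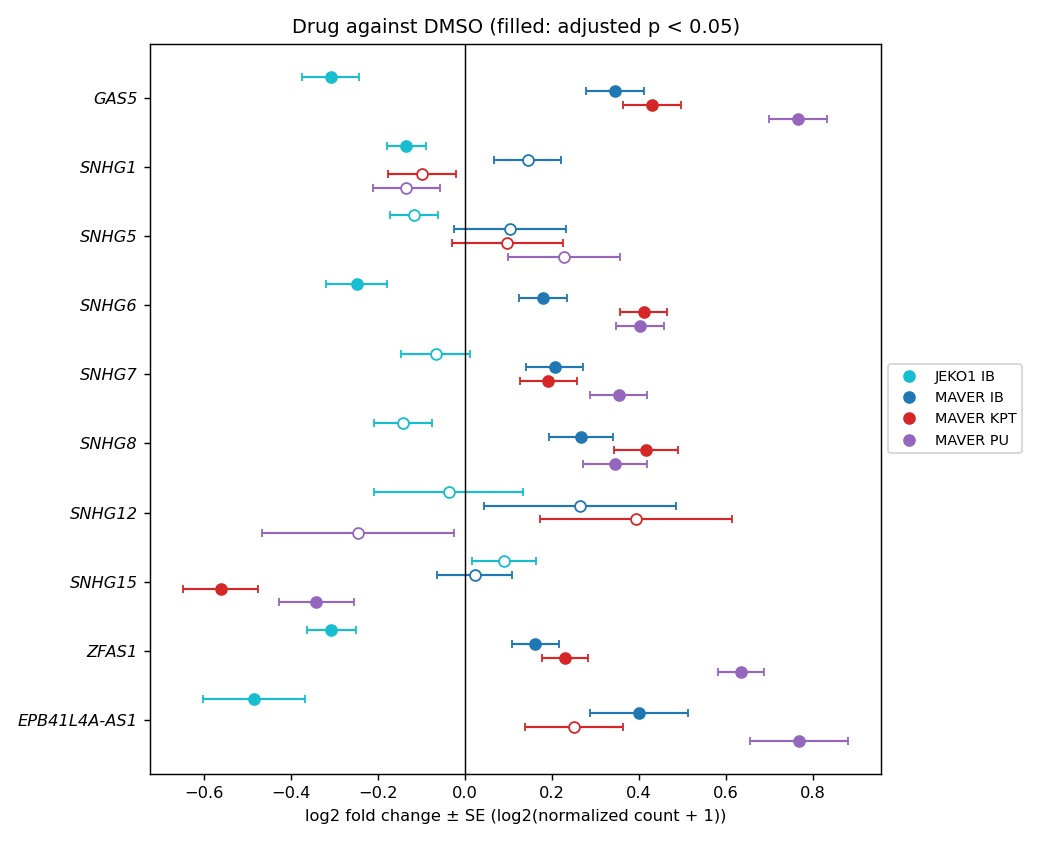
Log2 fold change over DMSO (horizontal axis) with SE for each host gene in the 4 comparisons of drug with DMSO. Filled points passed an adjusted p of 0.05; JEKO1 points lie left of 0 for 9 of 10 genes and MAVER IB points lie right of 0 for all 10.

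The MAVER drugs were also compared directly. PU against IB gave 4 hosts higher and 3 lower, against 27.5% and 27.6% of all genes. GAS5 was 0.42 ± 0.07 higher with PU than with IB, ZFAS1 0.47 ± 0.05, EPB41L4A-AS1 0.37 ± 0.11 and SNHG6 0.22 ± 0.05 (log2 fold change ± SE; limma adjusted p = 1.07e-06, 7.53e-10, 0.00576 and 0.000661). The EPB41L4A-AS1 call was lost without IB replicate C (0.27, adjusted p = 0.065) or PU replicate B (0.27, adjusted p = 0.077). SNHG15 was lower with PU, at -0.36 ± 0.09, and so was SNHG1, at -0.28 ± 0.08 (adjusted p = 0.000433 and 0.00248). SNHG12 was lower too, at -0.51 ± 0.22 (adjusted p = 0.047), a call lost in 11 alternatives and, without PU replicate A, reduced to -0.30 (adjusted p = 0.3). The lowest SNHG12 libraries with PU were replicates A and C, while replicate B overlapped the IB range.

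PU against KPT gave 5 hosts higher and 1 lower, against 28.3% and 28.6% of all genes, and 2 higher and 2 lower without the RNA45S5-rich KPT libraries, when KPT was replicate B alone and 23.6% and 21.4% of all genes were called higher and lower. ZFAS1 was 0.40 ± 0.05 higher with PU and EPB41L4A-AS1 0.52 ± 0.11 (log2 fold change ± SE; limma adjusted p = 2.72e-08 and 0.000162), and both calls held without those libraries. GAS5 was 0.34 ± 0.07 higher (adjusted p = 4.23e-05), and 0.21 without them (adjusted p = 0.0558). SNHG15 was 0.22 ± 0.09 and SNHG7 0.16 ± 0.07 higher (adjusted p = 0.0282 and 0.0325), but without those libraries the values were 0.13 and 0.05 (adjusted p = 0.354 and 0.692). SNHG15 was also not called without KPT replicate A (0.12), PU replicate A (0.21) or PU replicate B (0.17), nor SNHG7 without KPT replicate A (0.13), KPT replicate C (0.13), PU replicate B (0.14) or PU replicate C (0.13). SNHG12 was lower with PU, at -0.64 ± 0.22 (adjusted p = 0.0127), and not called without KPT replicate B (-0.44) or PU replicate A (-0.43). Without the RNA45S5-rich libraries SNHG12 was at -1.04 and SNHG1, at -0.29, was called lower as well (adjusted p = 0.0042 and 0.0114).

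KPT against IB gave 1 host higher and 2 lower, against 27% and 28.2% of all genes. SNHG6 was 0.23 ± 0.05 higher with KPT and SNHG15 lower, at -0.58 ± 0.09 (log2 fold change ± SE; limma adjusted p = 0.000447 and 2.89e-07), and both calls held without the RNA45S5-rich libraries (0.33 and -0.50), again with KPT replicate B alone. SNHG1 was lower, at -0.24 ± 0.08 (adjusted p = 0.00772), but that value was 0.012 without those libraries (adjusted p = 0.935). It was -0.15 without KPT replicate C (adjusted p = 0.12) and -0.20 without IB replicate B (adjusted p = 0.051). GAS5 differed between KPT and IB by 0.08 ± 0.07 (adjusted p = 0.289, 95% interval -0.05 to 0.22), and by 0.21 with KPT replicate B as the only KPT library (adjusted p = 0.0585). Neither value passed the threshold. The SNHG8 difference between KPT and IB was 0.15 ± 0.07 (adjusted p = 0.0813) and 0.25 with KPT replicate B alone (adjusted p = 0.0528), and was called without IB replicate C (0.19, adjusted p = 0.043) or KPT replicate A (0.20, adjusted p = 0.039).

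**Figure D3:**
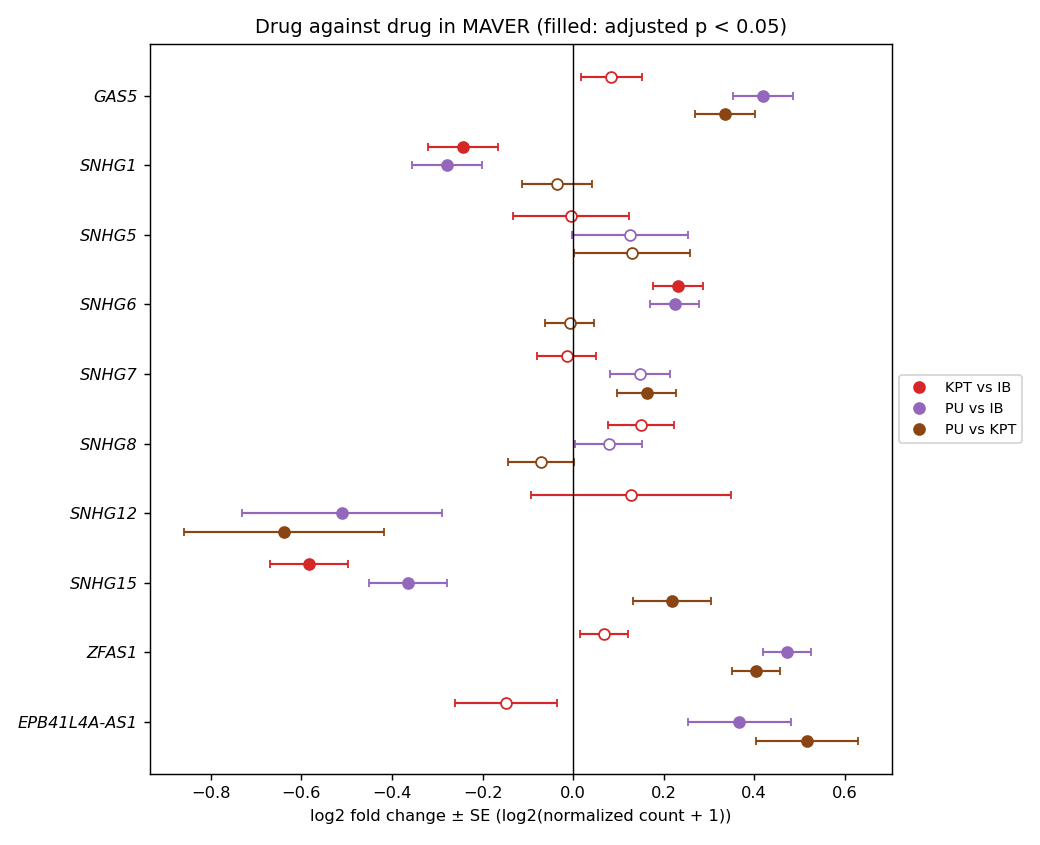
Log2 fold change (horizontal axis) with SE between MAVER drug groups for each host gene; filled points passed an adjusted p of 0.05. GAS5, ZFAS1 and EPB41L4A-AS1 lie right of 0 for PU against IB and against KPT, and SNHG15 lies left of 0 for KPT and PU against IB.

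The effect of IB differed between the lines for 7 of 10 hosts, all with the JEKO1 effect below the MAVER effect, against 19.6% of 10632 genes called lower in JEKO1 and 21.7% called higher. The difference, JEKO1 minus MAVER on the log2 scale, was -0.89 ± 0.17 for EPB41L4A-AS1, -0.65 ± 0.09 for GAS5 and -0.47 ± 0.08 for ZFAS1 (SE; limma adjusted p = 0.000138, 2.14e-06 and 1.42e-05). It was -0.43 ± 0.08 for SNHG6, -0.41 ± 0.10 for SNHG8 and -0.28 ± 0.07 for SNHG1 (adjusted p = 0.000162, 0.00259 and 0.00226). For SNHG7 it was -0.27 ± 0.11 (adjusted p = 0.0408), a call lost in 11 alternatives, 7 of which left out 1 library. Those 7 were JEKO1 DMSO replicates A and B, JEKO1 IB replicate C, MAVER DMSO replicates A and C and MAVER IB replicates A and B, with values of -0.19 to -0.29. Without JEKO1 DMSO replicate C the same number of hosts, 7, was called, and SNHG7 was at -0.34 (adjusted p = 0.0116). The share of all genes called in that fit is not given here.

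Of the hosts, 4 were called in both lines (GAS5, SNHG6, ZFAS1 and EPB41L4A-AS1), and all 4 had opposite signs. The same was true of 1260 of the 1415 genes called in both lines (89.0%). An exchange of the JEKO1 labels and an opposite response of the lines cannot be told apart, so each JEKO1 direction holds for the labels as given. SNHG15 and SNHG12 showed no called difference between lines (95% intervals -0.16 to 0.29 and -0.82 to 0.21), nor did SNHG5 (-0.48 to 0.04).

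**Figure D4:**
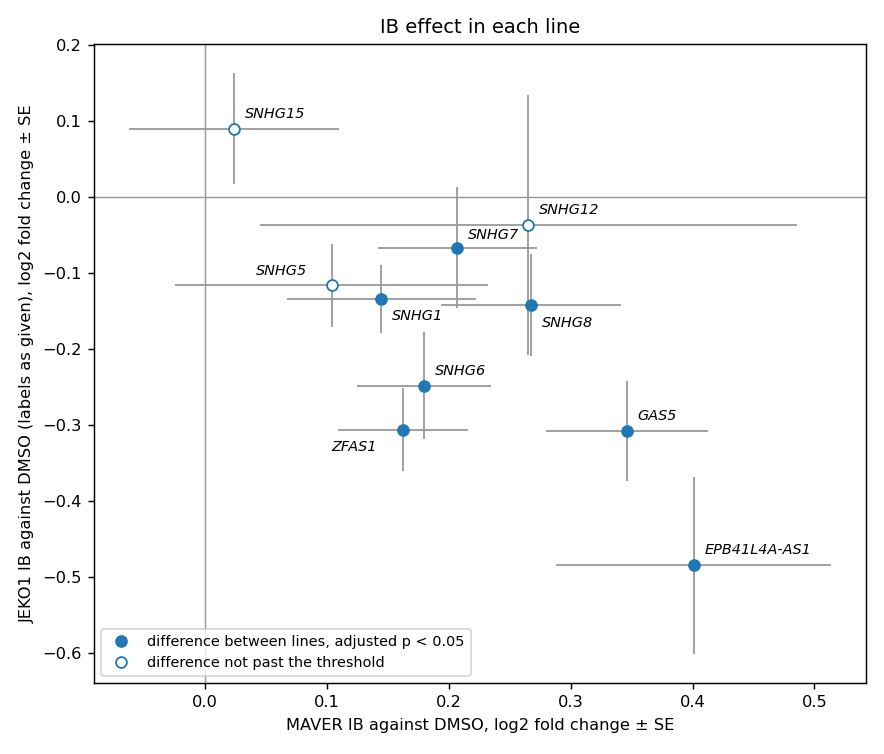
Log2 fold change with IB in MAVER (horizontal axis) and in JEKO1 with labels as given (vertical axis), each with SE, for the 10 host genes. Filled points, 7 of 10, have a difference between lines with an adjusted p under 0.05 and lie below 0 on the vertical axis and above 0 on the horizontal axis.

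Other groups of genes tied to the biology of these hosts were counted in the same fits, and several lists share genes (TPT1, which encodes a growth-related protein and hosts an H/ACA snoRNA, is on 2). Of all tested genes, 27.6% were called higher and 27.5% lower with PU, and 27.3% and 28.5% with KPT. These shares were 10.1% and 9.65% with IB in MAVER and 21.9% and 20.2% in JEKO1 libraries labelled IB. Each list count is to be read beside them. Ribosomal protein genes that passed the test were mostly higher with the MAVER drugs and lower in JEKO1 libraries labelled IB. With KPT 70 of 77 rose and 0 fell, and with PU 65 rose and 2 fell. With IB 17 of 77 rose and 0 fell in MAVER, and in JEKO1 libraries labelled IB 0 of 76 rose and 58 fell. Their median log2 fold changes were 0.34, 0.27, 0.06 and -0.26. RPL13A, which hosts several box C/D snoRNAs, rose by 0.58 ± 0.05 with KPT, 0.92 ± 0.05 with PU and 0.40 ± 0.05 with IB (SE; limma adjusted p = 5e-14, 1.64e-20 and 3.15e-09). Values of ribosomal protein genes are uncertain because reads may be shared with pseudogenes.

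Of 19 other 5′TOP messages, 13 rose and 0 fell with KPT, and 15 rose and 2 fell with PU. With IB 0 rose and 1 fell in MAVER, and 1 rose and 13 fell in JEKO1 libraries labelled IB. Of all genes, 27.3% were called higher with KPT, 27.6% with PU and 10.1% with IB in MAVER. In JEKO1 20.2% of all genes were called lower. TPT1 rose by 0.40 ± 0.04 with KPT and 0.63 ± 0.04 with PU, and fell by 0.34 ± 0.04 in JEKO1 (log2 fold change ± SE; limma adjusted p = 2.22e-11, 2.56e-17 and 1.54e-06). VIM, the filament protein vimentin, rose by 0.41 ± 0.04 with KPT and fell by 0.41 ± 0.04 with PU (adjusted p = 2.75e-11 and 2.31e-11). MTOR, the kinase that controls translation of 5′TOP messages and is not on that list, fell by 0.84 ± 0.05 with KPT (adjusted p = 1.09e-16). In JEKO1 MTOR stood at 2122 ± 38.4 normalized counts in libraries labelled IB, against 1797 ± 79.1 in those labelled DMSO (SD, n = 3). A link between MTOR and these messages was not tested.

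Noncoding snoRNA hosts outside these 10 were counted in the same fits. Of 11 tested, 1 rose and 7 fell with PU, 1 rose and 2 fell with KPT, 1 rose and 0 fell with IB in MAVER, and 1 rose and 2 fell in JEKO1 libraries labelled IB. Their median log2 fold changes were -0.31, -0.02, 0.07 and 0.03. With PU 27.6% of all genes were called higher and 27.5% lower, and with KPT 27.3% and 28.5%. With IB the shares were 10.1% and 9.65% in MAVER and 21.9% and 20.2% in JEKO1. SNHG29, listed as LRRC75A-AS1, was the one that rose in MAVER, by 0.59 ± 0.04 with PU, 0.28 ± 0.04 with KPT and 0.18 ± 0.04 with IB (SE; limma adjusted p = 1.54e-15, 2.07e-07 and 0.00116). With PU, SNHG3 fell by 0.66 ± 0.09 and SNHG4 by 1.02 ± 0.18 (adjusted p = 2.05e-08 and 4.73e-06), and with KPT SNHG17 fell by 0.75 ± 0.11 (adjusted p = 3.1e-07).

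Protein-coding hosts outside the ribosomal proteins moved both ways. Of 21 tested, 7 rose and 10 fell with PU, and 5 rose and 12 fell with KPT. With IB 2 rose and 2 fell in MAVER, and 2 rose and 9 fell in JEKO1 libraries labelled IB. The rising counts with PU and KPT lie near the 27.6% and 27.3% of all genes called higher there. Called lower were 27.5% of all genes with PU, 28.5% with KPT, 9.65% with IB in MAVER and 20.2% in JEKO1. HSPA8, a chaperone gene that hosts SNORD14 copies, rose by 0.74 ± 0.04 with PU, and NCL, the nucleolar protein nucleolin, fell by 0.59 ± 0.04 (log2 fold change ± SE; limma adjusted p = 4.65e-19 and 2.47e-16). WDR43, which acts in ribosome assembly, fell by 0.72 ± 0.05 with PU and by 0.68 ± 0.05 with KPT (adjusted p = 5.15e-17 and 2.84e-16).

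Genes for the proteins that bind and assemble snoRNAs fell more often than they rose in 3 of the 4 comparisons. Of 19, 0 rose and 14 fell with PU, and 2 rose and 10 fell with KPT. With IB 0 moved in MAVER, and 1 rose and 9 fell in JEKO1 libraries labelled IB. The shares of all genes called lower were 27.5% with PU, 28.5% with KPT, 9.65% with IB in MAVER and 20.2% in JEKO1. RRP9, the U3 snoRNA-binding protein, stood at 232 ± 26.2 normalized counts with PU and 233 ± 6.59 with KPT, against 495 ± 22.3 with DMSO (SD, n = 3; limma adjusted p = 5.48e-15 and 8.34e-15). NOLC1, a chaperone of snoRNA particles, fell by 0.88 ± 0.04 with PU and by 0.82 ± 0.04 with KPT, and DKC1, the pseudouridine synthase dyskerin, by 0.48 ± 0.04 and 0.43 ± 0.04 (log2 fold change ± SE).

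Nonsense-mediated decay factors gave 5 of 18 higher and 3 lower with PU and 3 and 10 with KPT. The counts were 0 and 2 with IB in MAVER, and 1 and 6 in JEKO1 libraries labelled IB. Of all genes, 27.6% were called higher and 27.5% lower with PU, and 27.3% and 28.5% with KPT. The shares were 10.1% and 9.65% with IB in MAVER and 21.9% and 20.2% in JEKO1. The 5 factors higher with PU and the 2 lower with IB lie near these shares. UPF1, the helicase at the centre of this decay, fell by 0.59 ± 0.06 with KPT (log2 fold change ± SE; limma adjusted p = 2.23e-11), and SMG1, the kinase that acts on it, fell by 0.29 ± 0.05 with PU (adjusted p = 7.79e-07). With PU the log2 fold changes of these factors ran from -0.50 to 0.55, with a median of -0.01. Known targets of this decay outside the snoRNA hosts gave 4 of 16 higher and 6 lower with PU and the same counts with KPT. They gave 3 and 0 with IB in MAVER, and 5 and 4 of 17 in JEKO1. The PU, KPT and JEKO1 counts of these targets lie near the shares of all genes, and no response of the list is read from them. GADD45A, a growth arrest gene on that list, stood at 443 ± 26.6 normalized counts with PU, 476 ± 30.8 with KPT and 398 ± 29 with IB, against 195 ± 19 with DMSO in MAVER. In JEKO1 it stood at 159.7 ± 10.2 in libraries labelled IB, against 476 ± 19 in those labelled DMSO (SD, n = 3).

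These list counts were also made without the RNA45S5-rich libraries, an alternative chosen after seeing the data. The shares of all genes called in these fits are given above, beside the counts of hosts. With KPT replicate B as the only KPT library, 67 of 77 ribosomal protein genes rose and 0 fell, as did 11 and 0 of 19 other 5′TOP messages. Of the other noncoding hosts 1 rose and 1 fell, of the protein-coding hosts 3 rose and 12 fell, of the snoRNA-binding and assembly proteins 2 rose and 9 fell, of the decay factors 1 rose and 8 fell, and of the decay targets 4 rose and 5 fell. In JEKO1 libraries labelled IB, without DMSO replicate C, 20.6% of all genes were called higher and 19% lower. There 1 ribosomal protein gene rose and 58 of 77 fell, and 2 other 5′TOP messages rose and 12 fell. The counts were 1 higher and 2 lower for the other noncoding hosts, 2 and 10 for the protein-coding hosts, 2 and 8 for the snoRNA-binding and assembly proteins, 1 and 7 for the decay factors and 5 and 5 for the decay targets.

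**Figure D5:**
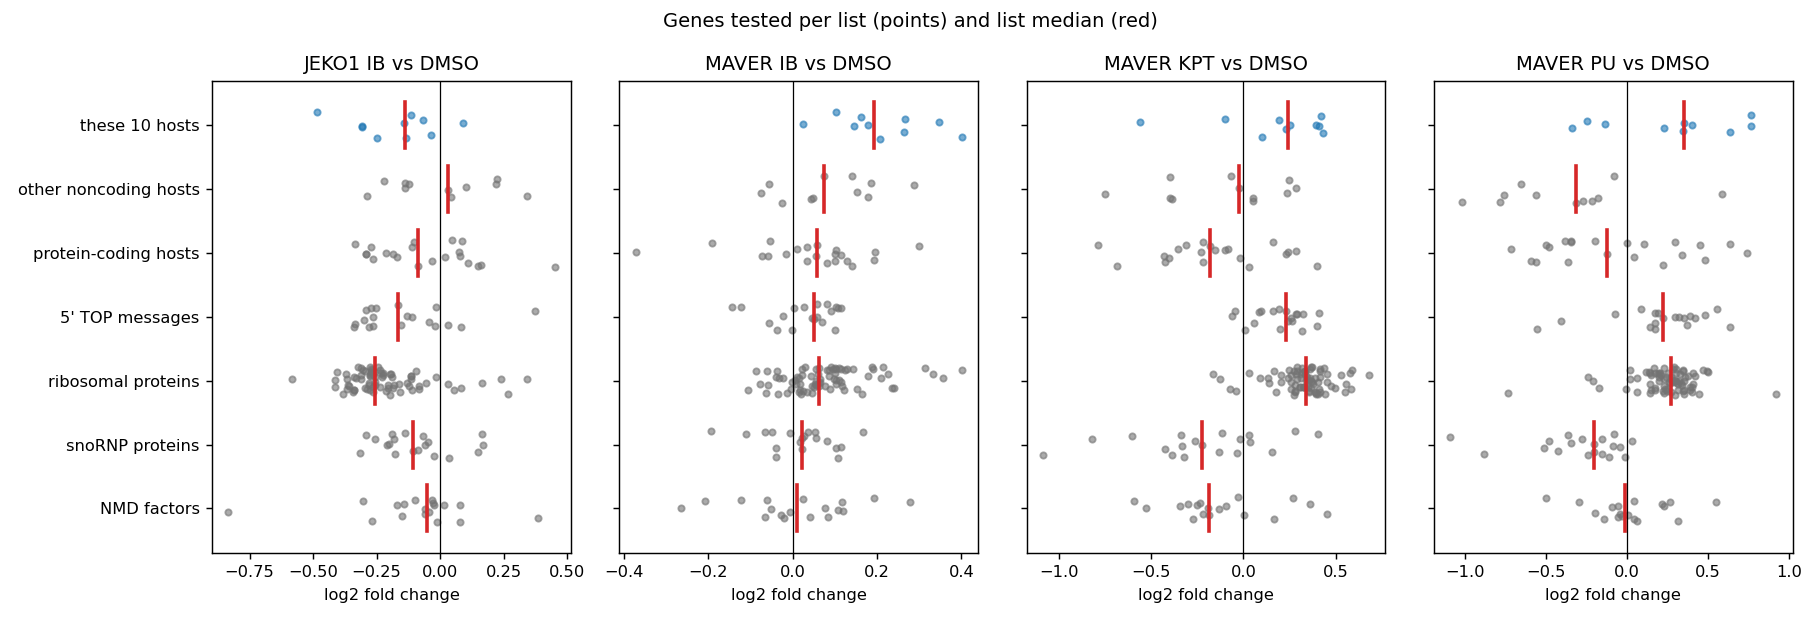
Log2 fold change over DMSO (horizontal axis) of every tested gene of each list (points, scattered vertically for visibility) with the list median in red, in the 4 comparisons. The 10 hosts, the 5′TOP messages and the ribosomal proteins have medians right of 0 in all 3 MAVER panels and left of 0 in JEKO1, and the medians of snoRNA-binding proteins lie left of 0 with KPT and PU.

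Mature snoRNAs were barely read. Of 33 listed snoRNAs within the 10 hosts, 2 (SNORA17 and SNORA43, both of SNHG7) had no read in either table, and 14 reached a mean of 10 normalized counts in JEKO1 and 2 in MAVER. The highest mean was 32.8, for SNORD47 in JEKO1. Summed over the 10 snoRNAs of GAS5, MAVER libraries held 42.6, 49.3 and 28.9 normalized counts with PU, 34.1, 76 and 47.3 with KPT and 76.1, 82.7 and 74.3 with IB, against 52.5, 58.1 and 59.4 with DMSO. The PU libraries lay below the DMSO libraries for these sums, while the spliced host gene lay above them. The IB sums lay above the DMSO sums, as did the host gene with IB, and the KPT sums overlapped them. Of all tested genes in MAVER, 61.2% had no overlap with DMSO with PU and 33.8% with IB. For the 8 snoRNAs of SNHG1 the sums were 35.3, 49.3 and 29.8 with PU, 57.4, 71.3 and 76 with KPT and 59.7, 76 and 70.1 with IB, against 53.4, 72.4 and 62.5 with DMSO. The PU sums of SNHG1 lay below the DMSO sums, and those of KPT and IB overlapped them. SNHG1 itself also lay below DMSO with PU, at 510 to 615 against 622 to 632. In JEKO1 the sums for GAS5 were 110.4, 123 and 109.9 in libraries labelled IB, against 126, 121 and 115 in those labelled DMSO, which overlapped. For SNHG1 they were 146, 117 and 122 in libraries labelled IB, against 171, 171.0 and 166 in those labelled DMSO, with no overlap. In JEKO1 50.2% of all tested genes had no overlap. The MAVER sums rest on 19 to 87 reads per library, reads of precursor introns may be among them, and no test was made.

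Among 9538 MAVER genes with a mean of at least 50, the 5 whose profile over the 12 libraries was most like that of GAS5 were PPM1K, ADAM17, RAB39B, GNPTAB and HEBP2, with root mean square differences of 0.073 to 0.092 between centred log2 values. PPM1K, a mitochondrial phosphatase of branched-chain amino acid breakdown, stood at 1043 ± 71.2 normalized counts with PU, 771 ± 82 with KPT and 781 ± 22.4 with IB, against 605 ± 30.4 with DMSO (SD, n = 3). ADAM17, a protease that sheds surface proteins, stood at 1411 ± 12.2, 1090.2 ± 38.3 and 1018 ± 53.2 in the same drug groups, against 827 ± 34.7 with DMSO. ZFAS1 ranked 7 by this measure, SNHG6 123, SNHG7 201, EPB41L4A-AS1 238, SNHG8 354, SNHG5 837, SNHG1 5098 and SNHG15 8081, while SNHG12 lay below the minimum mean. Over the 6 JEKO1 libraries the nearest of 9739 genes were RNF103, SLC26A2, FOXL1, FRMPD3 and SEMA4B. The hosts ranked there between 306, for SNHG6, and 5423, for SNHG15, with ZFAS1 at 906 and SNHG1 at 999.

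Reads of genes that overlap or face another gene, as GAS5 does with ZBTB37 and ZFAS1 with ZNFX1, cannot be assigned with certainty, because no source used here says whether counting was stranded. SLC3A2, the amino acid transporter subunit beside SNHG1, rose by 0.60 ± 0.04 with PU and by 0.34 ± 0.04 with KPT (log2 fold change ± SE; limma adjusted p = 7.8e-15 and 2e-08), where SNHG1 was not called. ZBTB37 fell by 0.58 ± 0.23 in JEKO1 libraries labelled IB (adjusted p = 0.0485) and was not called in MAVER (-0.32, 0.28 and 0.32 with PU, KPT and IB). NR3C1, the glucocorticoid receptor that GAS5 RNA is known to bind, was not called in any of the 4 comparisons with DMSO, with log2 fold changes of -0.03 to 0.02.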

How the data were processed

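Total RNA was made into TruSeq stranded libraries and sequenced as single 50 bp reads, per the labels' protocols, which name STAR, Cufflinks and DESeq2 (FastQC and hg19 are added by the submitters' processing notes). No source used here states the counter, the gene annotation or whether counting was stranded. Each table deposited by the authors covers 1 line and holds a signal per gene, the normalized count; the 2 tables were scaled apart, and levels were not compared between lines. Whole reads were recovered for 100% of values (within 0.01 read).

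All genes averaging 10 or more normalized counts were fitted with limma 3.58.1 (R 4.3.3, eBayes with trend) after log2(x + 1), and p-values were Benjamini-Hochberg adjusted over all of them. That scale understates the change of low genes. The 4 MAVER groups were fitted together; the difference between lines used the 12 IB and DMSO libraries. Members, lists and tests were chosen with earlier results of these data known. Named are all 10 hosts, up to 4 genes of smallest p per list and comparison, the 5 genes most like GAS5, XPO1 and RNA45S5; NR3C1 and the marker genes lie outside this rule and were chosen after their values were seen. Some genes were matched under older symbols (GNB2L1 for RACK1). Replicates differed by more than sampling noise (chi-square per degree of freedom 1.39 to 4.92). Alternatives were other pseudocounts, filters and scalings, no trend, a replicate block, the compared groups alone, each library left out, the RNA45S5-rich libraries left out (for the list counts, added after seeing the data), and edgeR 4.0.16 and DESeq2 1.42.0 on the recovered reads. Procedures were tested on simulated data that gave all genes the same spread, a simpler setting than these libraries. No result given here rests on that run. Sequences are from RefSeq and GENCODE on GRCh38; no coordinate was converted from hg19.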

Additional observations from a re-analysis of the deposited data

Results flagged for a closer look

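For 7 hosts the effect of IB differed between the lines by the test of the difference itself. The JEKO1 effect minus the MAVER effect was -0.65 for GAS5, -0.28 for SNHG1, -0.43 for SNHG6, -0.27 for SNHG7, -0.41 for SNHG8, -0.47 for ZFAS1 and -0.89 for EPB41L4A-AS1 on the log2 scale (limma adjusted p = 2.14e-06, 0.00226, 0.000162, 0.0408, 0.00259, 1.42e-05 and 0.000138). Under the labels as given, all 7 were lower in JEKO1 libraries labelled IB than in those labelled DMSO and higher in MAVER IB libraries than in MAVER DMSO libraries, by fitted value. An exchange of the JEKO1 labels cannot be told apart from an opposite response.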

How the results depend on the processing

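Over 80 values (10 hosts in 8 comparisons) and 1833 alternatives, 1745 stayed on the same side of the threshold (30 of these with the sign of an uncalled value changed), 68 lost a call, 19 gained one and 1 turned round. The value that turned round was SNHG1 in KPT against IB, 0.012 without the RNA45S5-rich libraries against -0.24 with them. The count of 6 hosts called with IB in MAVER was 2 without the variance trend, and 2 to 6 when 1 library was left out (3 without DMSO replicate A, 2 without IB replicate B). The 6 called in PU against KPT were 3 with DESeq2 on recovered reads. The cause was not tested. With the replicate letter as a replicate block, hosts called were 5 in JEKO1 and 6, 6 and 7 for IB, KPT and PU against DMSO, the same counts as without it, and 8 rather than 7 in PU against IB, where SNHG7 was then called (0.15, adjusted p = 0.043). The shares of all genes called in these alternative fits are not given here. Changed or unchanged counts of hosts are therefore not read as particular to the hosts. Correlations of same-letter deviations over all genes were -0.036 to 0.118 in JEKO1 and -0.092 to 0.104 in MAVER. Those of different letters were -0.130 to 0.121 and -0.103 to 0.142. Such correlations cannot settle whether letters mark paired cultures, which the labels do not say. In every MAVER group SNHG6 was lowest in replicate A and highest in replicate B, and SNHG5 was highest in replicate B. The SE of SNHG6 in MAVER was 0.046 with the block and 0.055 without it. Fits on the compared groups alone equal the reported fits for JEKO1 and the difference between lines. SNHG12 had 19 to 78 reads per MAVER library, which limits its precision.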
